A study of Mus musculus with 12 samples.

Results

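The comparison described here was that of p300 genotype over both treatments, in which the 6 libraries labelled p300 knockout (3 KO and 3 KOBLM) were set against the 6 labelled negative control (3 Con and 3 BLM), with treatment as an additive term. The members were chosen by the genotype label alone and make up all 12 libraries of the series, 1 per mouse. Murine primary alveolar type II (ATII) cells were taken from dissociated lungs in a flow-cytometric sort for CD74 and EpCAM, and their RNA was counted at the 3′ end of polyadenylated transcripts with the QuantSeq kit. Con and KO mice received PBS, and BLM and KOBLM mice received bleomycin at 4 mg/kg, both into the trachea. Bleomycin breaks DNA and injures the alveolar epithelium. The treatment protocol in the labels, which reads the same for all 12 samples, gives tamoxifen at 10 mg/kg at the age of 8 weeks before the instillation. The study's account of cells sorted from these mice also names vehicle in place of tamoxifen, so whether the controls received tamoxifen is not settled by the sources used here, and if they did not, tamoxifen and genotype cannot be told apart. The conditional allele carries LoxP sites around exon 9 of the p300 gene, and a tamoxifen-inducible Cre under the surfactant protein C (Spc) promoter deletes it in cells that use that promoter. The control libraries are titled WT in the labels. The study names C57BL/6 mice beside the knockouts for its RNA-seq and Spc-p300 f/f mice elsewhere, so the control genotype is also not settled, and a difference of strain or floxed allele cannot be told apart from the deletion. Deletion is thus limited to the cells in which the Spc promoter drove Cre, and in the knockout mice any other cell that passed the sort kept its floxed allele.

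The protein p300, encoded by Ep300, is a histone acetyltransferase. Together with its close relative CBP (Crebbp) it binds to transcription factors at enhancers and promoters, acetylates histones there and serves as a coactivator. ATII cells secrete surfactant and act as progenitors of the flat alveolar type I (ATI) cells that line the alveolus. After injury the alveolus also receives macrophages, which clear debris and surfactant.

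The deleted exon is shown because it is the part of the gene that the design removes in the knockout arm. In the 31-exon transcript of GENCODE M21, exon 9 of Ep300 lies at chr15:81620000-81620117 on the plus strand of GRCm38. It is wholly coding and 118 nt long, which leaves a remainder of 1 when divided by 3, so that its loss shifts the reading frame. Its sequence is given in full.
Ep300 exon 9: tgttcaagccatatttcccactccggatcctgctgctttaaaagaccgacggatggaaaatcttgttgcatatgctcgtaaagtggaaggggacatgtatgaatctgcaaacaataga

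The kit reads the 3′ end, and 6453 nt of the 9566-nt transcript follow exon 9, so counts on Ep300 do not show directly whether exon 9 was lost. Ep300 ran from 34.3 to 145 CPM (read counts scaled to a common library total) in the control arm (median 111) and from 53.2 to 184 CPM in the knockout arm (median 129). The arms overlapped almost entirely, and the log2 fold change of knockout over control was 0.39 (SE 0.47, edgeR p = 0.418, exact permutation p = 0.325). Crebbp, the paralog, differed by 0.15 on the log2 scale (SE 0.31, edgeR p = 0.646, exact permutation p = 0.265). The study reports deletion of p300 in primary ATII cells by qRT-PCR, and in the target cells of the lung by immunofluorescence. Whether the mice of those assays also gave these libraries is not stated in the sources used here. Within these counts every direction below therefore rests on the genotype labels.

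Library totals ran from 7005005 to 11153154 counts, and between 6847 and 13838 genes had a count. The library labelled BLM 3 stood apart, with the fewest genes and a median Spearman correlation with the other libraries of 0.447 across genes, against 0.713 to 0.845 for the rest. Its 26 pluripotency genes summed to 3426 CPM against 186 to 702 CPM elsewhere, its 17 macrophage markers to 1053 CPM against 12023 to 40542 CPM, and its 4 Y-linked genes to 9.31 CPM against 131 to 280 CPM. Results are therefore given with and without this library. KO 3 and KOBLM 2, both of the knockout arm, came next with 8790 and 9018 genes, and every other library had at least 10246. Their median correlations were 0.713 and 0.715. The label ATII was compared with marker genes. The sum of the 12 ATII markers lay between 204 and 2095 CPM, and Sftpc, which encodes surfactant protein C, ran from 0.606 to 619 CPM. In all 12 libraries the 17 macrophage markers summed to more than the 12 ATII markers, so ATII markers were not the leading marker signal of any library. In such bulk samples fewer cells of a type and less RNA per cell cannot be told apart.

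**Figure D1:**
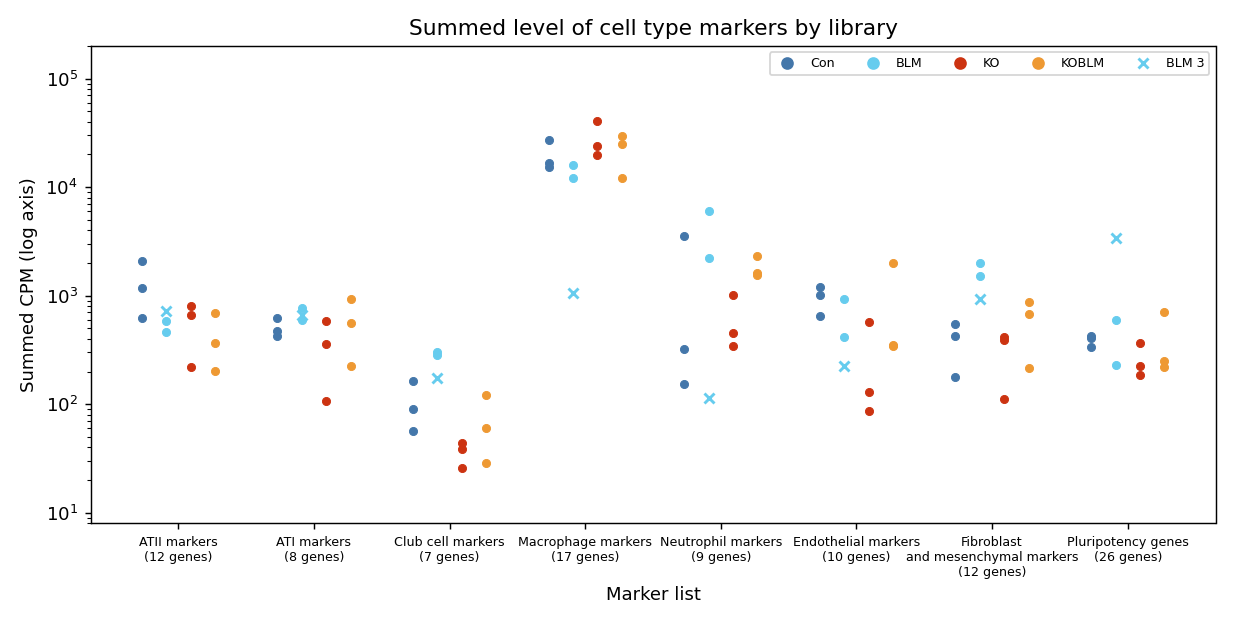
Summed TMM-scaled CPM (log axis) of 8 marker lists in each library, coloured by group, with BLM 3 as a cross. Macrophage markers sit between 12023 and 40542 CPM in all libraries but BLM 3, whereas ATII markers sit between 204 and 2095 CPM.

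Marker sums also differed between the genotype arms. Macrophage markers had a median sum of 15769 CPM in the control arm (1053 to 27166) and 24414 CPM in the knockout arm (12198 to 40542), with no marker at 0 in every library of an arm. Of the 17 macrophage markers, 15 had a log2 fold change above 0, 8 were higher and 0 lower in both treatments, and none was called with all libraries. Chil3 and Marco were called higher without BLM 3. Club cell markers went the other way, from a median of 170 CPM (56.9 to 301) in controls to 41.1 CPM (25.7 to 123) in knockouts, and 1 of the 7 was at 0 in all controls and 2 in all knockouts. All 4 tested club cell markers were lower in both treatments, and 1 of them, Scgb1a1, was called. Scgb1a1 is part of this sum, so its result below is not a separate observation. ATII markers had medians of 672 and 512 CPM. Fibroblast and mesenchymal markers had medians of 740 CPM (178 to 2011) and 402 CPM (111 to 872), and endothelial markers 787 CPM (223 to 1207) and 350 CPM (86.3 to 2013). Erythroid markers had medians of 125 CPM (12.9 to 999) and 660 CPM (64.9 to 9333, the highest in KOBLM 2), with 1 marker at 0 in every library of each arm, a log2 fold change above 0 for all 5 tested markers and none called. The part of these shifts in the gene results below was not tested.

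A gene was called when its fold change exceeded 1.5 at an unadjusted p under 0.05 in the quasi-likelihood test of edgeR. Over both treatments 72 genes of the 13054 tested were called higher in the knockout arm (0.552%) and 192 lower (1.47%). In all, 264 genes had an unadjusted p under 0.05, where 652.7 would be expected if no gene differed. No gene had an adjusted p under 0.05 with edgeR, for which the smallest adjusted p was 1.0, and DESeq2 gave 9. All but Igf1 of those 9 had at most 9 counts in any knockout library. The biological coefficient of variation was 1.458. In simulated counts with this spread, 76 of 178 genes changed 4-fold were called at this threshold beside 477 unchanged ones. The simulation held no outlying library, and its 477 calls exceed the 264 made here, so its shares do not carry over to them. Since no edgeR call held after adjustment, the called genes below are a description of these libraries, and single calls are not established.

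Without BLM 3, 234 genes were called higher (1.66% of 14084 tested) and 409 lower (2.9%), and again none had an adjusted p under 0.05 with edgeR, beside 650 at an unadjusted p under 0.05. Of the 264 genes called with all libraries, 204 were also called the same way without BLM 3, 64 of the 72 higher and 140 of the 192 lower. BLM 3 was the highest library for 85 of the 192 genes called lower (44.3%) and for 16.2% of all tested genes. It was the lowest library, or tied as lowest, for 59 of the 72 genes called higher (81.9%) and for 61.5% of all tested genes. Many of the lower genes were near the limit of detection, since 73 had 0 counts in all 6 knockout libraries. A gene at 0 in that arm can only be called lower, and the share of such genes among all tested genes is not given here. The part of KO 3 and KOBLM 2, the knockout libraries with the fewest genes, in these 0 counts was not tested. The genes called lower had a median level of 4.08 CPM, against 21.1 CPM for those called higher and 22.1 CPM for all tested genes.

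Within treatments, 188 genes differed between KO and Con (1.44%) and 413 between KOBLM and BLM (3.16%). The 2 contrasts share no library, so the sign in one treatment is a check on a call made in the other. Of the 188 genes called between KO and Con, 110 (58.5%) had the same sign between KOBLM and BLM, and 76 also exceeded 1.5-fold there. Of the 413 called between KOBLM and BLM, 175 (42.4%) had the same sign between KO and Con. Over all tested genes the share was 48.8%. Without BLM 3 these shares were 48.9% and 42.5%, against 47.9% of all tested genes. Of the 13054 tested genes, only 2 were called higher in both treatments (Adgre4 and Igf1) and 6 lower (Arhgef17, Chic1, Cpxm1, Pdzd4, Sgpp2 and Vgll3). Another 7 were called in opposite directions, so calls in the same direction were hardly more frequent than calls in opposite directions. Without BLM 3, of 14084 tested genes Igf1 was the only gene called higher in both. Adgrd1, Axin2, Bgn, Eln, Gpx3, Scgb1a1, Sparcl1 and Vgll3 were then called lower in both. Igf1 and Vgll3 were thus called in both treatments with and without that library. These genes were named after their values were seen.

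**Figure D2:**
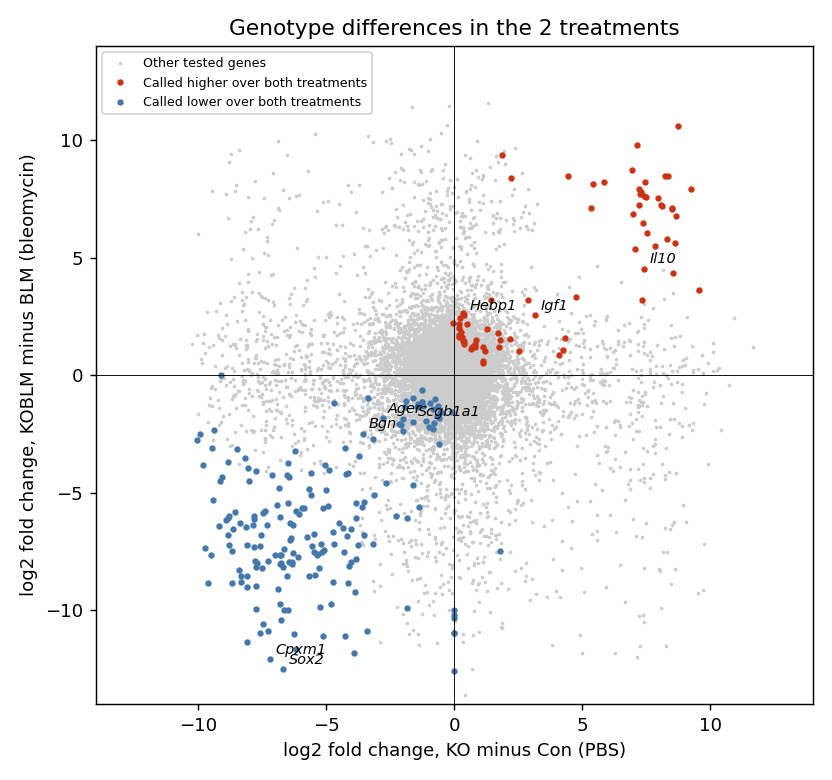
Log2 fold change between KO and Con (x axis) against that between KOBLM and BLM (y axis) for the 13054 tested genes, with the 72 genes called higher over both treatments in red and the 192 called lower in blue. Of the 264 called genes 255 lie in the quadrants of equal sign because the additive test selects them so, and 48.8% of all tested genes share a sign.

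The genes described next were called with a mean of at least 10 CPM over all 12 libraries, BLM 3 included. They also had the same sign in both treatments and were called the same way without BLM 3. In all, 59 genes met this, 32 higher and 27 lower. The 12 with the smallest p in each direction are given. Their adjusted p was 1.0 throughout, and their shared sign is part of the choice.

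Igf1, a secreted growth factor of the insulin family that lung macrophages and fibroblasts make, had the smallest p of all tested genes. It stood at 23.7, 20.01 and 21.7 CPM in Con, 33.9, 40.2 and 37.3 CPM in BLM, 27.03, 449 and 112 CPM in KO, and 68.8, 110 and 470 CPM in KOBLM. Every knockout library lay above every control library of its treatment, although KO 1 lay only just above Con. The log2 fold change was 2.85 (SE 0.65, edgeR p = 0.000504, exact permutation p = 0.005, the smallest that the 400 assignments within treatments allow). It was 3.17 between KO and Con and 2.54 between KOBLM and BLM, 2.89 without BLM 3, and 2.20 without KO 2.

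A further 4 higher genes (Clec7a, Cybb, Fyb and Il10) are known for expression in macrophages or other immune cells, and the summed macrophage markers were also higher in the knockout arm (median 24414 against 15769 CPM), whose part was not tested. Clec7a, which encodes the β-glucan receptor Dectin-1, ran from 41.2 to 1684 CPM in controls (median 760) and from 1054 to 2035 CPM in knockouts (median 1574). Cybb, the catalytic subunit of the phagocyte NADPH oxidase, ran from 73.8 to 1816 CPM (median 985) and from 1365 to 2396 CPM (median 1920). In both genes the 3 BLM libraries were the lowest and the Con and KO libraries overlapped. The log2 fold change of Clec7a was 0.34 between KO and Con and 2.62 between KOBLM and BLM, and that of Cybb was 0.22 and 2.45. No interaction had an adjusted p under 0.05 with edgeR in any gene, beside 368 at an unadjusted p under 0.05. Over both treatments Clec7a differed by 1.48 (SE 0.56, edgeR p = 0.0178, exact permutation p = 0.01) and Cybb by 1.33 (SE 0.52, edgeR p = 0.0213, exact permutation p = 0.015). Without BLM 1 the p of Cybb was 0.0511. Fyb, an adaptor of immune receptor signalling, had a log2 fold change of 1.86 (SE 0.67, edgeR p = 0.0134, exact permutation p = 0.075), which was 1.03 without KO 2, where the call was lost. Il10, an anti-inflammatory cytokine, was at 0 in 4 controls and 3 knockouts and reached 96.5 and 55.6 CPM in KOBLM 1 and KOBLM 3. The fitted log2 fold change of 5.49 (edgeR p = 0.0206, exact permutation p = 0.2) was 3.84 without KO 2 and 6.17 without BLM 1, and the call was lost without KO 2 or KOBLM 1.

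The other 7 higher genes had varied roles, among them lipid storage and redox metabolism. Fabp5, a fatty acid carrier, ran from 136 to 524 CPM in controls (median 207) and from 173 to 1452 CPM in knockouts (median 399). Soat1, which esterifies cholesterol for storage, ran from 86.4 to 267 CPM (median 126) and from 165 to 698 CPM (median 275). Txnrd1, a cytosolic thioredoxin reductase, ran from 85.0 to 149 CPM (median 94.2) and from 86.7 to 405 CPM (median 192). The arms overlapped in all 3. Their log2 fold changes were 1.48, 1.16 and 1.12, with edgeR p of 0.0163, 0.0117 and 0.0183, and without KO 2 the p was 0.0689, 0.0547 and 0.111. Without KOBLM 3 the p of Fabp5 was 0.0985 and that of Txnrd1 0.0539. Hebp1, a heme-binding protein, was at 28.5 to 37.8 CPM in BLM and 147 to 236 CPM in KOBLM, but at 138 to 194 CPM in Con and 153 to 264 CPM in KO. Its difference of 1.46 on the log2 scale (SE 0.47, edgeR p = 0.00709, exact permutation p = 0.015) was 0.38 between KO and Con and 2.53 between KOBLM and BLM. Sgk1, a serum- and glucocorticoid-induced kinase, showed the same order, with 0.31 between KO and Con and 1.61 between KOBLM and BLM. Mpp1, a membrane scaffold protein, differed by 1.06 on the log2 scale (edgeR p = 0.0252, exact permutation p = 0.015), with edgeR p of 0.0517 and 0.0605 without BLM 1 and BLM 2. Lap3, a cytosolic leucine aminopeptidase, differed by 1.75 (edgeR p = 0.0175, exact permutation p = 0.035), and by 1.21 without KO 3, where the call was lost.

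Among the lower genes were markers of other lung epithelial cells. Ager, which encodes the receptor RAGE and is a marker of ATI cells, stood at 40.5, 78.2 and 25.0 CPM in Con, 109, 101.2 and 63.2 CPM in BLM, 7.63, 3.13 and 9.99 CPM in KO, and 63.0, 6.61 and 7.76 CPM in KOBLM. In both treatments every knockout library lay below every control library, in the bleomycin groups by as little as 63.0 against 63.2 CPM. The log2 fold change was -2.30 (SE 0.73, edgeR p = 0.00642, exact permutation p = 0.005), -2.45 without BLM 3 and -3.13 without KOBLM 1. The other 7 ATI markers were not called, and the ATI marker sum had medians of 606 and 458 CPM. Of the 8 ATI markers, 3 had a log2 fold change above 0 and 3 were lower in both treatments. Scgb1a1, the secretory protein of club cells, ran from 14.8 to 242 CPM in controls (median 137) and from 14.4 to 110 CPM in knockouts (median 24.1). All KOBLM libraries lay below all BLM libraries, and Con 1 and KO 1 were alike at 14.8 and 14.4 CPM. Its log2 fold change was -1.80 (SE 0.55, edgeR p = 0.0048, exact permutation p = 0.02), with -1.62 between KO and Con and -1.98 between KOBLM and BLM.

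Matrix and secreted proteins made up a further group. Bgn, the small proteoglycan biglycan, ran from 11.3 to 135 CPM in controls (median 32.7) and from 0 to 17.7 CPM in knockouts (median 6.90), a log2 fold change of -3.02 (SE 1.01, edgeR p = 0.00912, exact permutation p = 0.01). Gpx3, a secreted glutathione peroxidase, ran from 29.0 to 157 CPM (median 69.3) and from 9.55 to 54.2 CPM (median 25.5). Within each treatment its knockout libraries lay below its control libraries, with a log2 fold change of -1.42 (SE 0.51, edgeR p = 0.0134, exact permutation p = 0.005). Without BLM 1 its p was 0.0653. Timp1, an inhibitor of metalloproteinases that is induced by injury, was at 0 or 0.764 CPM in Con, at 85.8, 86.2 and 137 CPM in BLM, at 0 in KO, and at 0.56, 0 and 16.4 CPM in KOBLM. Its difference therefore lay in the bleomycin groups, and its edgeR p of 0.0128 was 0.0537 without Con 1. Its log2 fold change was -4.20 with all libraries and -7.73 without KOBLM 3. Fbln2, the matrix protein fibulin-2, was at 0 to 14.9 CPM in Con and 15.7 to 81.9 CPM in BLM, and its only counts in the knockout arm were 1.48 CPM in KO 2. Its fitted log2 fold change of -7.00 (edgeR p = 0.0121, exact permutation p = 0.02) lay between -10.85 without KO 2 and -5.95 without KOBLM 2, and was -8.21, -8.31 and -7.97 without Con 1, Con 2 and Con 3 and -6.00 and -5.99 without KOBLM 1 and KOBLM 3.

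Vps72, a histone-binding subunit of chromatin remodelling complexes, and Bcl9l, a coactivator of β-catenin, were the 2 genes of this group whose 12 libraries separated fully by genotype. Vps72 ran from 181 to 249 CPM in controls (median 198) and from 65.0 to 177 CPM in knockouts (median 108), with a log2 fold change of -0.95 (SE 0.35, edgeR p = 0.0151, exact permutation p = 0.005). Bcl9l ran from 72.2 to 180 CPM (median 114) and from 19.3 to 67.5 CPM (median 50.3), with -1.27 (SE 0.45, edgeR p = 0.012, exact permutation p = 0.005). Neither gene rested on BLM 3, without which the values were -0.996 and -1.22. Enah, an actin regulator, was at 1.95 to 14.2 CPM in Con, 59.1 to 406 CPM in BLM and 0 to 5.46 CPM in the knockout arm. It differed by -4.13 on the log2 scale with all libraries (edgeR p = 0.0135, exact permutation p = 0.01), -3.33 without BLM 3, -6.20 without KO 1 and -3.54 without KOBLM 2.

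The remaining 3 lower genes rested on BLM 3 for their size, and they reached the required mean of 10 CPM only through that library. Sox2, an airway and stem cell transcription factor, was at 233 CPM in BLM 3, at 4.20 and 5.87 CPM in Con 1 and BLM 2, and at 0 in the other libraries. Camsap3, a microtubule minus-end protein of epithelia, was at 123 CPM in BLM 3 and at 2.92 and 8.51 CPM in Con 2 and BLM 2 and at 0 in the other libraries. Cpxm1, a carboxypeptidase-like secreted protein, was at 163 CPM in BLM 3 and between 0 and 10.5 CPM in the other controls. All 3 were at 0 in the 6 knockout libraries. Against a floor of 3 counts per library the control mean of Sox2 was at least 114-fold higher with BLM 3 and at least 5.69-fold higher without it. For Camsap3 these bounds were 63.2-fold and 6.45-fold, and for Cpxm1 they were 86.4-fold and 11.6-fold.

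**Figure D3:**
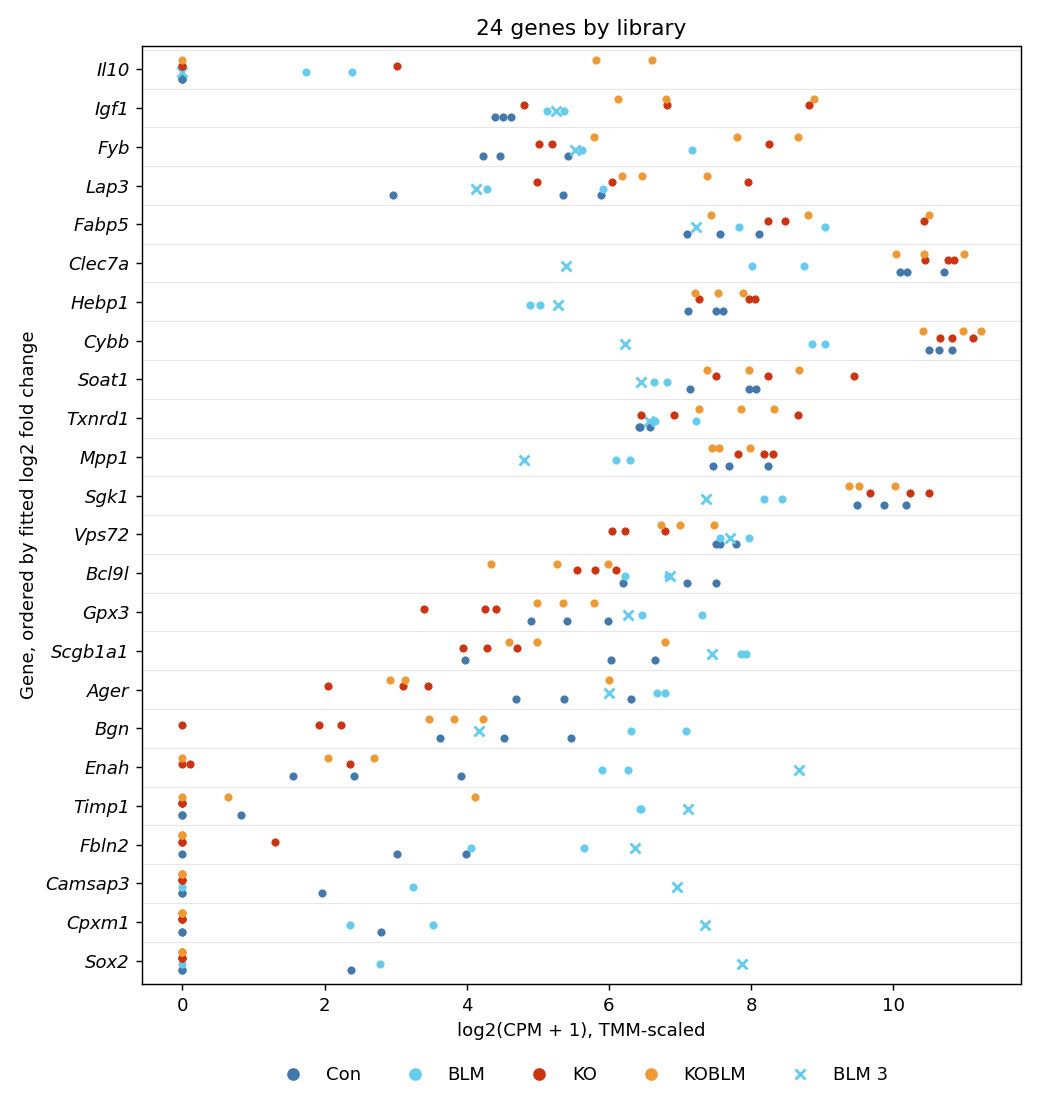
Log2(CPM + 1) of the 24 genes in each of the 12 libraries, ordered by fitted log2 fold change and coloured by group, with BLM 3 as a cross. Vps72 and Bcl9l separate by genotype, Igf1 and Ager separate within each treatment, and Sox2, Camsap3 and Cpxm1 reach their high values in BLM 3.

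In 10 of the 13054 tested genes all 6 knockout libraries lay above all 6 control libraries (0.0766%), and in 11 they lay below (0.0843%). All 21 had an arm mean of at least 10 CPM. By the gap between the arms, the leading higher genes were Trappc2l, Aurkaip1, Gdap10, Leprot, Sdhaf4 and Asap1, and the leading lower genes were Chic1, Slc20a2, Stip1, Lrp6, Thap1 and the unnamed transcript 2310022B05Rik. Aurkaip1, a mitochondrial ribosome protein, was at 62.6 to 80.0 CPM in controls and 93.0 to 150 CPM in knockouts. Leprot, which lowers the number of leptin receptors at the cell surface, was at 147 to 181 CPM in 5 controls and 201 to 359 CPM in knockouts. In BLM 3 Leprot was at 3.10 CPM, and Trappc2l, Gdap10 and Sdhaf4 were at 0 there. Sdhaf4, an assembly factor of succinate dehydrogenase, was at 13.9 to 39.9 CPM in the other controls and 43.5 to 104 CPM in knockouts. Asap1, a regulator of Arf GTPases, was at 88.6 to 159 CPM and 165 to 304 CPM. Chic1 was at 1.17 to 56.0 CPM in controls and at 0 in all knockouts but KOBLM 1, which had 0.28 CPM. Lrp6, a co-receptor of Wnt ligands, was at 38.2 to 114 CPM and 9.49 to 33.0 CPM, and Slc20a2, a phosphate transporter, at 4.98 to 48.1 CPM and 0 to 3.82 CPM. Of these 12 genes, Chic1, Gdap10 and Stip1 were also called. The call of Gdap10 was lost on leaving out any of Con 3, BLM 1, KO 2 and the 3 KOBLM libraries, where its log2 fold change of 2.32 lay between 2.14 and 2.39. That of Stip1 was lost on leaving out any of Con 3, BLM 3, KO 1 and KOBLM 1. Without BLM 3, 12 genes separated upwards (0.0919%) and 43 downwards (0.329%). With 5 controls in place of 6, separation is easier to reach, so these counts are not directly comparable with the 10 and 11 above.

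The pathway lists were described by how many of their tested genes were called and by their median log2 fold change, beside a median of -0.01 over all tested genes. The list of lung epithelial transcription factors and junction proteins had the lowest median, -1.32 over 21 genes, with -1.03 between KO and Con and -1.53 between KOBLM and BLM. It held 4 genes called lower and 0 higher, and 11 of the 21 were lower in both treatments (52.4%, against 25.2% of all tested genes). The called genes were Sox2, Foxa2 (a transcription factor of lung epithelium and endoderm) and the tight junction proteins Cldn3 and Cldn4. All 4 were at 0 in the 6 knockout libraries. They thus passed the filter on low counts through the control arm alone and could only be called lower. Foxa2 was at 3.95, 7.14 and 0 CPM in Con and 13.4, 1.61 and 0.144 CPM in BLM, and it was at 0 in all 6 knockouts, so that controls were at least 12.4-fold higher, and at least 7.25-fold without BLM 1. The bound was 5.14-fold for Cldn3 and 2.77-fold without BLM 2. For Cldn4, which had counts in the BLM libraries and in no Con library, it was 19.7-fold, and 12.7-fold without BLM 2. The call of Cldn4 was lost without BLM 2, KOBLM 1 or KOBLM 3. The list median was -1.30 without BLM 3 and between -1.51 and -0.90 over the omission of each library. The 4 called genes lie below the median also at their bounds, so setting them there leaves it at -1.32 by construction. ATII marker sums are given above.

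Collagens and matrix glycoproteins had a median of -0.73 over 46 genes, with -0.24 between KO and Con and -1.13 between KOBLM and BLM. Bgn, Fbln2 and Eln were called lower and Spp1 higher, and 21 genes were lower in both treatments (45.7%) against 7 higher in both. Eln, which encodes elastin, was at 16.8, 38.7 and 8.27 CPM in Con, 381, 266 and 11.5 CPM in BLM, 5.19, 9.39 and 0.666 CPM in KO, and 98.2, 21.3 and 32.4 CPM in KOBLM. The difference was -2.09 (SE 0.79, edgeR p = 0.0182, exact permutation p = 0.11), and -2.35 without BLM 3, which was the lowest BLM library for this gene. The call was lost without Con 2 or BLM 1, with -1.77 and -1.80. Spp1, the matricellular protein osteopontin, a product of activated macrophages, went the other way through KO 2 at 9955 CPM and KOBLM 3 at 4123 CPM, where the other 10 libraries were at 60.0 to 1463 CPM. Over both treatments it differed by 2.66 (edgeR p = 0.048, exact permutation p = 0.59) and 0.49 without KO 2, and the call was also lost without any 1 of Con 1, Con 2, Con 3, BLM 1, BLM 3 and KOBLM 3. Thbs1, called lower only without BLM 3, was at 203 to 448 CPM in BLM and at 60.1 to 107 CPM in KOBLM. The summed fibroblast markers were lower in the knockout arm as well, as given above, and their part was not tested.

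Of the 26 lists, that of lysosomal enzymes and membrane proteins had the highest share of genes above 0. No gene was called, and 40 of 42 had a log2 fold change above 0 (49.4% of all tested genes did), and 27 were higher and 0 lower in both treatments. The median was 0.67, with 0.19 between KO and Con and 1.05 between KOBLM and BLM, and it was 0.43 without BLM 3. Lipa, the acid lipase that releases cholesterol and fatty acids in lysosomes, was at 0 CPM in BLM 3, at 130 to 230 CPM in the other controls and at 203 to 488 CPM in knockouts. It was called only without BLM 3, with a log2 fold change of 0.89 (exact permutation p = 0.015 with all libraries). Lysosomal genes are abundant in macrophages, and the macrophage markers had a median log2 fold change of 0.81, with 0.25 between KO and Con and 1.20 between KOBLM and BLM, whose part was not tested.

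Nrf2 antioxidant genes had a median of 0.51 over 30 genes, with 0.31 and 0.56 in the 2 treatments, and 17 of them were higher in both (56.7%, against 23.6% of all tested genes). Of these genes 4 were called higher, namely Txnrd1, Ftl1, Hmox1 and Gstm1, and Gsta4 was called lower. Ftl1, the light chain of the iron store ferritin, was at 662 to 3539 CPM in controls (median 2992) and at 2591 to 11268 CPM in knockouts, with KO 2 and KOBLM 3 highest. Hmox1, which breaks down heme, was at 16.2 to 317 CPM in controls and 73.1 to 3739 CPM in knockouts, again highest in KO 2 and KOBLM 3. The log2 fold change of Ftl1 was 1.08 (edgeR p = 0.0361, exact permutation p = 0.115), and its call was lost without KO 2 (0.86) or KOBLM 3 (0.63). That of Hmox1 was 2.48 (edgeR p = 0.0396, exact permutation p = 0.115) and 0.97 without KO 2, and its call was also lost without any 1 of Con 1, Con 2, Con 3 and KOBLM 3. Gstm1, a glutathione transferase, overlapped between Con (264 to 443 CPM) and KO (249 to 400 CPM) and lay above BLM (57.2 to 109 CPM) in KOBLM (186 to 572 CPM). Its call (edgeR p = 0.0421, exact permutation p = 0.065) was lost without any 1 of Con 2, BLM 1, BLM 2, BLM 3, KOBLM 2 and KOBLM 3. Gsta4 was at 164 CPM in BLM 3, at 0 to 9.17 CPM in the other controls and at 2.42 CPM in KOBLM 3 alone of the knockouts. The fitted difference was -6.63 with all libraries, -5.27 without BLM 3 and -5.26 without Con 1, where the call was lost, and -10.13 without KOBLM 3. Not called with all libraries, but called without BLM 3, were Gsr, Prdx1 and Sod2, which were higher, and Gpx2, which was lower. Gsr, glutathione reductase, was at 53.2 to 144 CPM in the other controls and 108 to 359 CPM in knockouts. The list median was 0.37 without BLM 3.

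Interferon-stimulated genes had a median of 0.66 over 39 genes (0.77 in PBS and 0.53 in bleomycin), of which 0 were called and 23 were higher in both treatments (59.0%). Without BLM 3 the median was 0.51 and Irf9, a subunit of the interferon-activated transcription factor ISGF3, was called higher. Genes of the unfolded protein response had a median of 0.45 over 26 genes (0.16 and 0.76), with 0 called and 11 higher against 1 lower in both treatments. Without BLM 3 its chaperone Hsp90b1 was called higher. Heat shock genes lay in the other direction, at -0.44 over 20 genes (-0.32 and -0.40), with 10 lower and 0 higher in both. Of these, Stip1, a co-chaperone of Hsp70 and Hsp90, was called lower, at 53.9 to 182 CPM in controls and 0.749 to 44.6 CPM in knockouts (log2 fold change -1.64, edgeR p = 0.0334, exact permutation p = 0.005). It was -1.41 without BLM 3, where the call was lost. The heat shock median was 0.08 when the library with the fewest genes was left out of each group, a setting chosen after seeing the data.

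**Figure D4:**
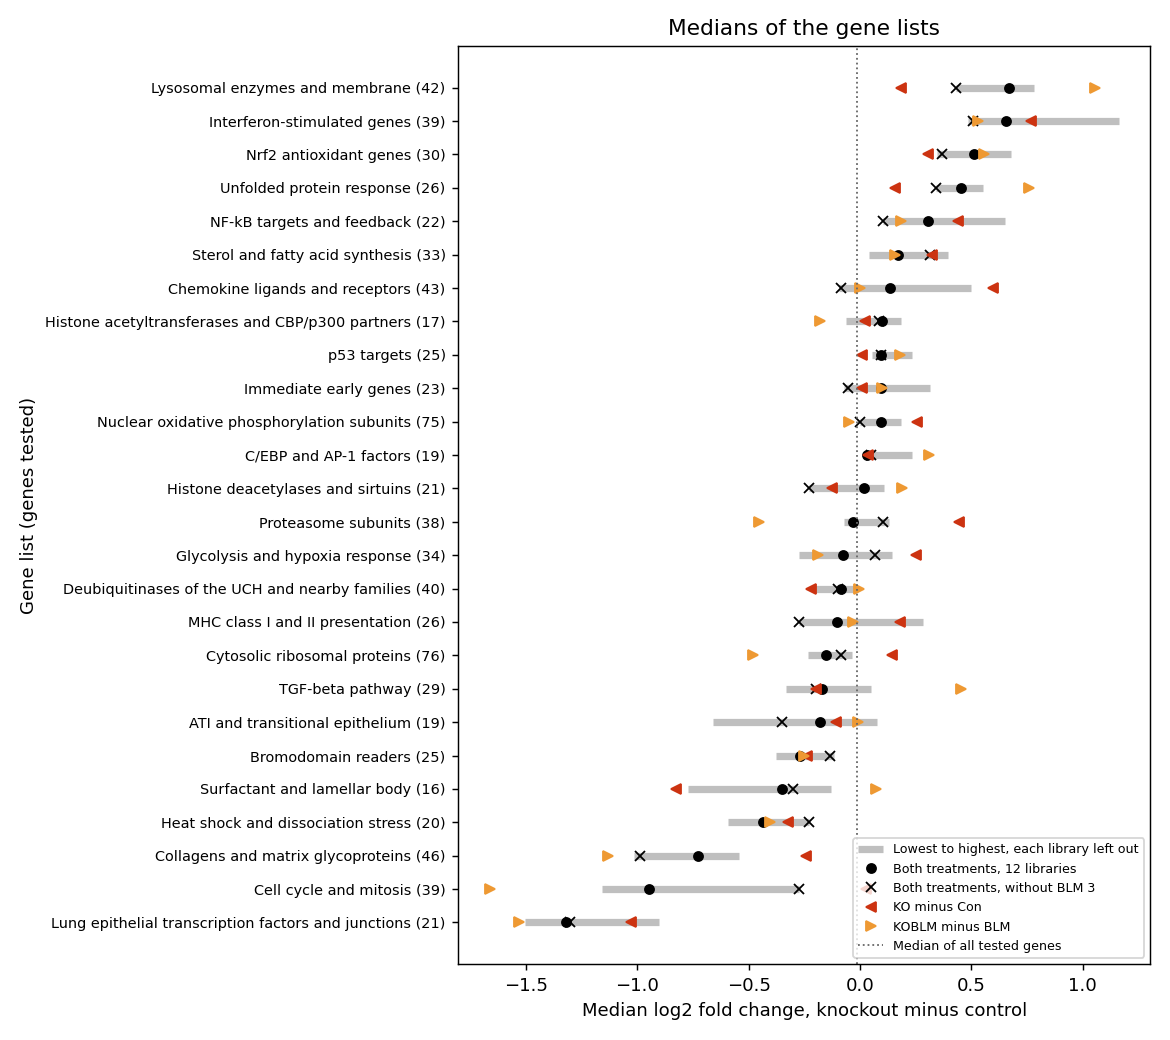
Median log2 fold change of 26 gene lists in the knockout arm over the control arm, over both treatments (dots), without BLM 3 (crosses) and within each treatment (triangles), with grey bars for the range when each library is left out. Lysosomal, interferon-stimulated, Nrf2 and unfolded protein response genes lie above the dotted median of all genes and epithelial, matrix and heat shock genes below it in both treatments.

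No gene of the chromatin or C/EBP lists was called with all libraries. Of 17 histone acetyltransferases and partners, 21 deacetylases and sirtuins and 25 bromodomain readers, 0 were called, with medians of 0.10, 0.02 and -0.27. Without BLM 3, Brd1 and Brd3 were called lower. Cebpb, which encodes the transcription factor C/EBPβ, was at 692, 492 and 441 CPM in Con, 408, 264 and 7.73 CPM in BLM, 765 to 918 CPM in KO, and 830, 293 and 664 CPM in KOBLM. The KO libraries all lay above the Con libraries. The log2 fold change was 1.02 with all libraries (SE 0.60, edgeR p = 0.105, exact permutation p = 0.025) and 0.73 without BLM 3, where its spread was smaller (edgeR p = 0.0216, adjusted p = 1.0). Cebpa, its relative, differed by 0.69 (edgeR p = 0.436, exact permutation p = 0.3). Uchl3, a deubiquitinase that the study links to p300, differed by 0.10 with all libraries (edgeR p = 0.928, exact permutation p = 0.725) and by -0.21 without BLM 3.

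Of 43 chemokine ligands and receptors, 2 were called higher, Ccl4 and Cxcl9, and 0 lower. The list median was 0.14 with all libraries and -0.09 without BLM 3, so that it had no settled direction. Ccl4, an inflammatory chemokine, was at 0 to 43.5 CPM in controls and at 3.71 to 454 CPM in knockouts. It differed by 3.05 on the log2 scale (edgeR p = 0.0255, exact permutation p = 0.1), and the call was lost without KO 2 (1.75) or KOBLM 1 (2.56). Cxcl9, an interferon-γ-induced ligand of Cxcr3, was at 0 to 4.99 CPM and 0 to 164 CPM, with a log2 fold change of 4.04 (edgeR p = 0.0438, exact permutation p = 0.28) and 2.75 without KO 3. The call was lost without any 1 of Con 1, Con 2, Con 3, BLM 1, KO 3, KOBLM 1 and KOBLM 3. The monocyte chemokines Ccl2, Ccl7 and Ccl12 had no common shift over both treatments, with log2 fold changes of 0.42, 2.65 and 0.08 (exact permutation p = 1.0, 0.55 and 0.895). Between KO and Con they differed by 3.05, 10.43 and 4.73 and between KOBLM and BLM by -2.20, -2.32 and -4.21. The PBS value of Ccl7 is a fitted value that gives no bound, since the gene was at 0 in all Con libraries and in KO 1 and KO 3, and at 56.8 CPM in KO 2.

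Some of the other lists differed between the treatments or with 1 library. Cell cycle genes had a median of -0.94 over 39 genes, with 0.03 between KO and Con and -1.66 between KOBLM and BLM, and -0.27 without BLM 3. Ribosomal protein genes had medians of 0.14 and -0.48 in the 2 treatments, and proteasome genes 0.44 and -0.46. In these lists Cdc6, Rps27a and Psmd3 were called lower. Cdc6 had a log2 fold change of -4.94, which was -3.45 without BLM 3, -4.32 without Con 1, -6.01 without KO 2 and -6.75 without KOBLM 1, and its call was lost without BLM 3, Con 1, KO 1, KO 3, KOBLM 2 or KOBLM 3. The call of Rps27a was lost without any library but Con 1, Con 2, KO 1 and KO 3, and that of Psmd3 without Con 3, BLM 2, KOBLM 1 or KOBLM 2. Rps27a was at 163 to 358 CPM in Con and 192 to 247 CPM in KO, but at 534 to 963 CPM in BLM and 213 to 252 CPM in KOBLM. The surfactant and lamellar body genes had medians of -0.83 and 0.07, with Etv5 called lower through 319 CPM in BLM 3 (log2 fold change -2.18, and -1.15 without that library, where the call was lost as it was without Con 2, Con 3, KO 1, KOBLM 2 or KOBLM 3). Without BLM 3, Sftpb was called lower in its place. Antigen presentation genes had a median of -0.10 with H2-Q6 called lower (not without Con 2), and the class II genes H2-Aa, H2-Ab1 and H2-Eb1 were called lower only without BLM 3 (log2 fold changes of -1.02, -1.11 and -1.18). Cd74, a partner of class II and a protein used in the sort, was at 444 to 2499 CPM in controls and 527 to 1404 CPM in knockouts (log2 fold change -0.64, edgeR p = 0.157, exact permutation p = 0.315). Epcam, the other sort protein, was at 9.76 to 265 CPM and 3.27 to 189 CPM. Among 25 p53 targets Gdf15 was called higher, and among 34 glycolysis genes Slc2a3 was called lower, at 306 CPM in BLM 3. The call of Slc2a3 was lost without Con 3 or BLM 3, and that of Gdf15 without any 1 of Con 1, BLM 1, KO 2, KOBLM 1, KOBLM 2 and KOBLM 3. The lists for NF-kB, TGF-β, immediate early, C/EBP and AP-1, oxidative phosphorylation, sterol synthesis and deubiquitinase genes had medians between -0.17 and 0.31 and 0 called genes. Of the NF-kB genes 17 of 22 were above 0 (77.3%), with medians of 0.44 between KO and Con and 0.18 between KOBLM and BLM. Sterol synthesis genes had 0.32 and 0.16, whereas TGF-β and oxidative phosphorylation genes changed sign. A shared direction was therefore not limited to the lists described above.

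Genes near the engineered loci were counted because engineered alleles can bring neighbouring DNA of their founder strain with them. Where the Cre allele was inserted is not given in the sources used here, and Sftpc was used because its promoter drives Cre. Within 10 Mb of Ep300 on chromosome 15, 1 of 229 tested genes was called, Mapk12, which was lower (0.437%, against 2.02% of all tested genes). Within 10 Mb of Sftpc on chromosome 14, 1 of 108 was called, Bmp1, also lower (0.926%).

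Promoter windows were read for the named genes, since p300 acts at promoters and enhancers through factors such as C/EBP and AP-1. The windows are the 250 bases before the start site in RefSeq (GRCm38.p6), which were matched for 18 of the 24 named genes. They were searched on both strands for TTGCNNAA (C/EBP) and TGANTCA (AP-1), whose matches may overlap. The C/EBP letters were found in 10.3% of the 58 windows of genes called higher, 9.09% of the 132 of genes called lower, 7.72% of the 9862 of tested genes and 9.55% of the 27025 in the table. The AP-1 letters were found in 5.17%, 4.55%, 4.31% and 6.87%. A match is a description of letters and not a binding site. The windows of Cybb, higher and with 1 AP-1 match in capitals, and of Ager, lower and with no match, are printed as examples. That of Cybb lies at chrX:9469325-9469574 on the minus strand and that of Ager at chr17:34597600-34597849 on the plus strand.
Cybb: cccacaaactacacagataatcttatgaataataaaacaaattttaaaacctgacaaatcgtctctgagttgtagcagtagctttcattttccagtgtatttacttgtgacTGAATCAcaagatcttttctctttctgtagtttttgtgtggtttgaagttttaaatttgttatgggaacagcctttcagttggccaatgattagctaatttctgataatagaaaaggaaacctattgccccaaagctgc
Ager: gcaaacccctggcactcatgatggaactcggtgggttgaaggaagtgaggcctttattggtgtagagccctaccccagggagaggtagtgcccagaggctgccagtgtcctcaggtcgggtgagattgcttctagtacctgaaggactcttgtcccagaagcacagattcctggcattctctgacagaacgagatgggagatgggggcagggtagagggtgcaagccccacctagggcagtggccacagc

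The number of called genes depended on the setting. Among genes with a mean of at least 10 CPM, 45 were called higher and 86 lower, and with limma's voom and sample weights, in which BLM 3 had a weight of 0.0346, 223 were called higher and 677 lower. The p threshold alone left the counts at 72 and 192. Lower genes were the more numerous in all settings but 2. These were without Con 2 (224 higher, 207 lower) and without the library with the fewest genes of each group (334 higher, 319 lower). The libraries left out in the latter were Con 3, BLM 3, KO 3 and KOBLM 2. The 24 named genes kept their sign in every setting run, but they were chosen by their calls in these same libraries with and without BLM 3.

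**Figure D5:**
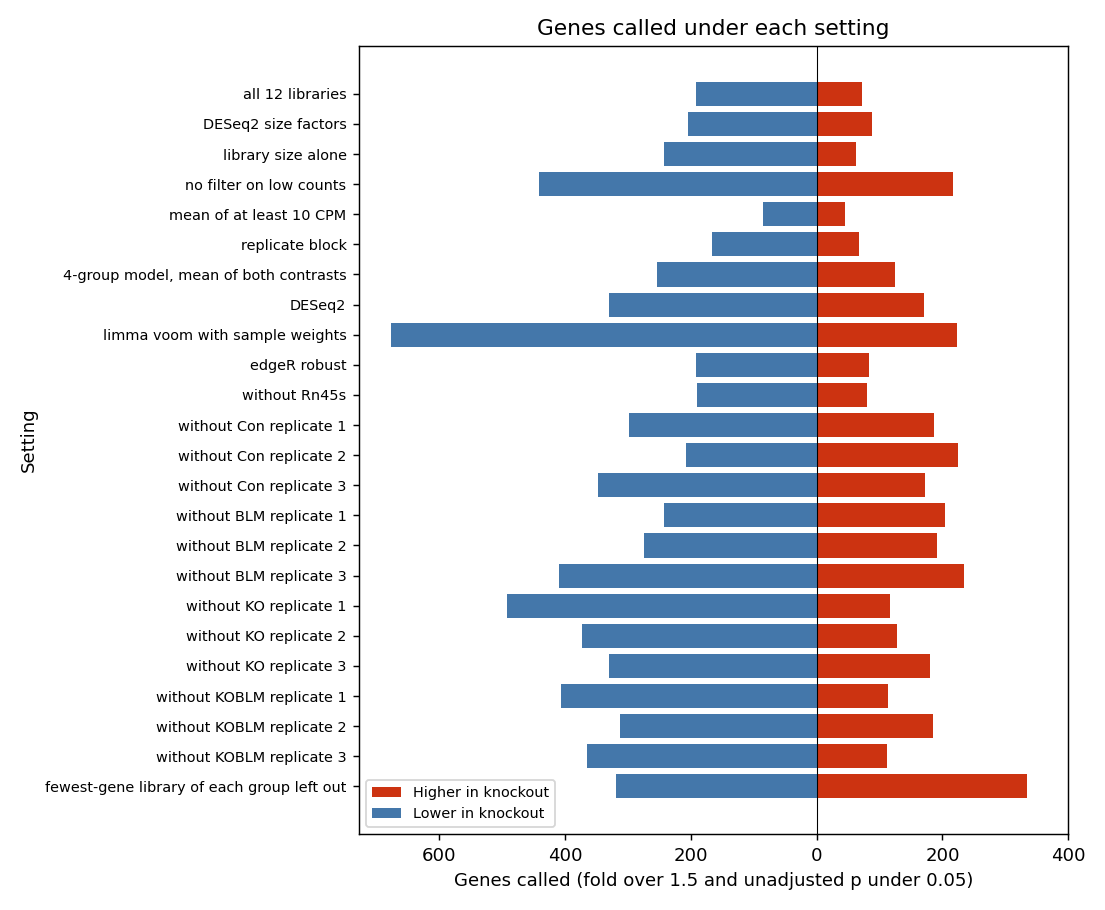
Number of genes called higher (red) and lower (blue) in the knockout arm under each setting. Lower genes outnumber higher ones except without Con replicate 2 and without the fewest-gene library of each group.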

How the data were processed

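The authors made 3′ libraries with the QuantSeq kit from sorted cells and deposited 1 table of raw read counts per library. The deposited counts are whole numbers per gene symbol with no normalization. The submitters' processing notes name Bowtie2, edgeR and mm10, without versions, and the trimming and counting programs are not given in the sources used here. Each table held 23282 entries, and 35 repeated symbols were summed, leaving 23238. Groups came from the titles. Each library is labelled as 1 mouse, so p-values measure the spread between mice.

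Genes were kept by filterByExpr of edgeR (4.0.16, in R 4.3.3; minimum count 10, minimum total 15), scaled by TMM and fitted by quasi-likelihood with treatment and genotype as additive terms (9 residual degrees of freedom). A model with 4 groups gave the contrasts within treatments and the interaction. The study names edgeR without giving the model. P-values were adjusted by the Benjamini-Hochberg method. Exact two-sided permutation tests exchanged genotype within treatment on log2 CPM (prior count 2). Log2 fold changes are knockout minus control, and CPM are TMM-scaled. Folds against an arm at 0 used a floor of 3 counts per library (0.213 to 0.493 TMM-scaled CPM), which covers counting error only. The fits were tested on simulated data. Alternatives were DESeq2 1.42.0, limma 3.58.1 (voom with sample weights), other scalings and filters, a replicate block and the omission of each library.

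The comparison, the gene lists and the rule for named genes were chosen with earlier results of these data known. Named genes were the 12 per direction with the smallest p among genes called with a mean of at least 10 CPM, equal sign in both treatments and the same call without BLM 3, the 6 per direction with the widest gap among genes whose arms did not overlap, Ep300, Crebbp and the genes of the study's question, and list members that were called. Members of the lists given with values although not called were picked after their values were seen. Figures used matplotlib 3.10.9.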

Additional observations from a re-analysis of the deposited data

Results flagged for a closer look

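Values were examined for a sample that lay far from the other 5 of its arm, by Dixon's 95% criterion on the gap to the nearest sample as a share of the arm's range on the log2 scale. Of 100 gene or marker values by arm that were examined, 12 met this, where chance gives about 1 in 20. In the control arm BLM 3 was the distant library for macrophage markers (gap of 0.749 of the range, low), pluripotency genes (0.643, high), Y-linked genes (0.804, low), the X inactivation transcript (0.781, high), Uchl3 (0.733, low), Cebpa (0.768, low) and Cebpb (0.784, low). Thus 7 of the 12 values concerned this library.

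BLM 2 was distant for Txnrd1 in the control arm (0.727, high). In the knockout arm KOBLM 2 was distant for Cebpb (0.717, low) and for Scgb1a1 (0.63, high), KO 2 for Fbln2 (1.0, as the only library above 0) and KOBLM 3 for Timp1 (0.707, high). The results for these genes with and without the libraries that change their call are given above.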

How the results depend on the processing

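Against 72 genes called higher and 192 lower, there were 217 and 441 with no filter on low counts, 45 and 86 with a mean of at least 10 CPM, 170 and 331 with DESeq2, 223 and 677 with voom weights, 334 and 319 without the library with the fewest genes of each group (chosen after seeing the data), and 2896 and 3454 by fold alone. The mean of both contrasts in the 4-group model called 125 higher. Leaving out each library gave 112 to 234 higher and 207 to 492 lower. DESeq2 gave 9 genes with an adjusted p under 0.05, with Igf1 the only one of the 24 named genes that was higher. The others were lower, with at most 9 counts in any knockout library. Some lay mainly in 1 library, such as Sox2 with 3225 counts in BLM 3 and C1qtnf7 with 269 in Con 3. Without BLM 3, 43 genes lay lower without overlap (0.329%) and 354 of 14084 were called between KO and Con. Uchl3 (0.10) was -0.47 with voom, -0.55 without the fewest-gene libraries and -0.65 to 0.44 over the omission of each library. Ccl2 (0.42) was -2.02 with voom and -1.22 to 1.29, Ccl7 (2.65) was -3.13 and -2.06 to 5.82, and Ccl12 (0.08) was -3.83 and -1.97 to 2.24, with -0.021 by library size and -0.15 without the fewest-gene libraries. The cause of these changes was not tested.

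Deviations from the group means had correlations between -0.034 and 0.096 for same-numbered samples of KO and Con or of KOBLM and BLM. For differently numbered samples they lay between -0.0755 and 0.0519. The ranges overlap, and with 3 samples per group these values do not settle whether the numbers pair the samples. With the replicate block 67 genes were called higher and 166 lower, and Uchl3 was -0.21. Of 552 alternatives for the 24 named genes, 528 kept the call, 24 lost it and 0 reversed. The genes were chosen by small p in these same libraries and by their call without BLM 3, which is among these settings. These counts are therefore partly fixed by the choice and are not a separate check of the genes. At 7005005 to 11153154 counts per library a count of 0 allows up to 0.213 to 0.493 CPM, and 73 of the 192 lower genes were at 0 in every knockout library.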
